A study of Mus musculus with 2 samples.

Results

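The miR-34 and miR-449 genes were examined in small RNA sequenced from whole lungs of mouse embryos of embryonic day 15.5. The members were the 6 genes that the GENCODE annotation names Mir449a, Mir449b, Mir449c, Mir34a, Mir34b and Mir34c, taken by name and not by their values, of 1973 microRNA genes in the count tables. The libraries form 1 group with 2 biological replicates, of healthy embryos of strain B6NCrl with no treatment named. Lungs of 78 embryos were pooled for replicate 1 and those of 62 embryos for replicate 2, with males and females mixed in each pool, and both pools carry 1 donor identifier. No other stage, tissue or genotype was sequenced here, so levels can be described and genes can be compared within each library, but no change between conditions can be tested.

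A microRNA guides Argonaute proteins to messenger RNAs through its seed, the bases near its 5′ end, and members of a family share that seed. The miR-34 and miR-449 genes make up such a family, known from multiciliated cells of the airway, brain ventricles and oviduct, where its members act together in the formation of motile cilia by repressing, among others, the centriolar protein Cp110 and the Notch pathway. The Mir449 genes lie in Cdc20b beside regulators of multiciliated cell differentiation, and the Mir34 genes are also known as targets of the tumour suppressor p53, Mir34a in many tissues. MicroRNA tables hold no protein-coding markers of multiciliated cells, so the cell type in which these genes were transcribed was not tested.

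The mature sequences are shown because the family is defined by its seed, and because they bear on whether a read can be told apart from those of other members. RefSeq on GRCm38.p6 gave mature sequences for 5 of the 6 genes. The sequences used here held no entry for Mir449b and no mature entry for miR-34c-5p, so the mature sequences of these were not compared. Sequences run 5′ to 3′ and the capitals mark the seed, bases 2 to 8. The 5p arms were:
miR-449a-5p: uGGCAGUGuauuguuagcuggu
miR-449c-5p: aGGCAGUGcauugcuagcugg
miR-34a-5p: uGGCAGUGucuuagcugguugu
miR-34b-5p: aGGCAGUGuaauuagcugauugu

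All 4 of these 5p sequences carried the seed GGCAGUG, and no other of the 1738 mature entries of the table did. This says nothing of the seeds of miR-34c-5p and Mir449b, which had no mature entry. Further on, all 4 also held the run UAGCUG, though not all at the same position. A count without gaps does not realign bases after an insertion or deletion, so the identities below can understate likeness. Counted from the first base without gaps, miR-449a-5p and miR-449c-5p were identical at 18 of 21 positions (85.7%) and miR-449a-5p and miR-34a-5p at 15 of 22 (68.2%). The other 4 pairs lay between 45.5% and 57.1%. The longest run of bases that any 2 of the 4 shared was 9.

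The 3p arms, which a count per precursor does not separate from the 5p arms, had other seeds. They are given for the Mir34b and Mir34c pair, since its members shared one:
miR-34b-3p: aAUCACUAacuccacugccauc
miR-34c-3p: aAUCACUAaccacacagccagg

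These 3p sequences were identical at 17 of 22 positions (77.3%), and no other mature entry had their seed. The 3p seeds of miR-34a, miR-449a and miR-449c were each found in no other entry.

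The 6 precursors came from 3 places in the genome (mm10). Mir449c (chr13:113035983-113036091), Mir449b (chr13:113037419-113037498) and Mir449a (chr13:113037534-113037624) lie on the plus strand of chromosome 13, in intron 2 of each of the 5 annotated transcripts of Cdc20b. Mir449b and Mir449a are separated by 35 bp, and Mir449c lies 1327 bp before Mir449b. On the same strand, Mcidas, a coregulator that starts the multiciliated cell programme, ends 37.1 kb before Mir449a, and Ccno, which is needed for the amplification of centrioles, ends 46.8 kb before it. Gpx8, on the other strand inside Cdc20b, lies 5.13 kb beyond Mir449a. None of these protein-coding genes was measured in the microRNA libraries.

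**Figure D1:**
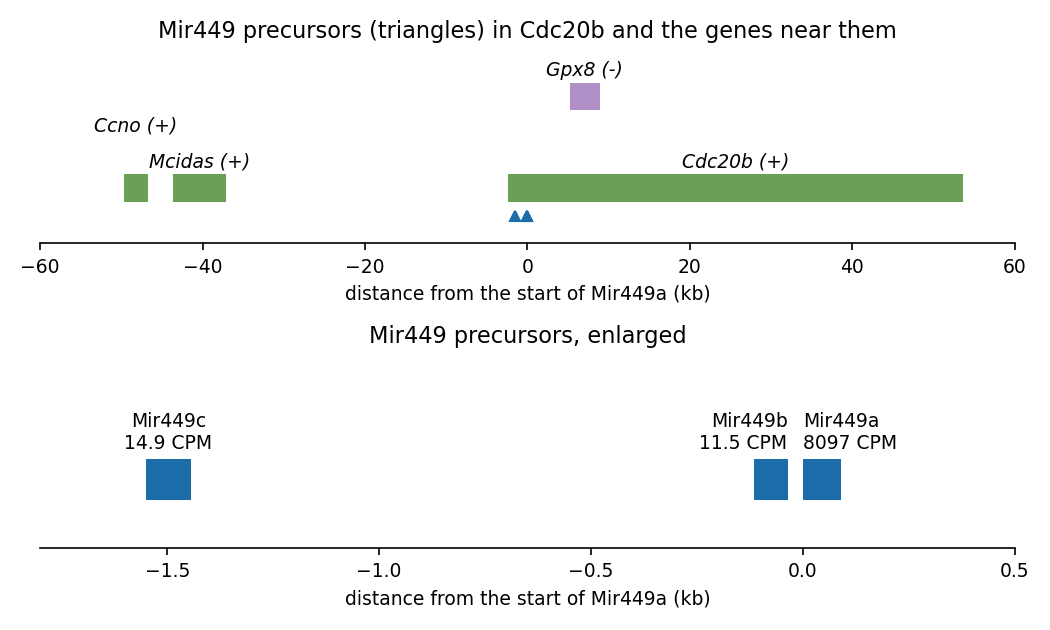
Map of the Mir449 precursors and of the protein-coding genes Ccno, Mcidas, Cdc20b and Gpx8 near them, with distance from the start of Mir449a in kb on both horizontal axes and the strand of each gene in brackets. The lower panel enlarges the precursors and gives their mean CPM over 2 libraries, 8097 for Mir449a against 11.5 for Mir449b, which lies 35 bp away.

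Mir34c (chr9:51103034-51103110) and Mir34b (chr9:51103562-51103645) lie 451 bp apart on the minus strand of chromosome 9. They are antisense to Btg4, whose span contains them, and fall in intron 1 of transcript Btg4-204. On their own strand no annotated gene contains them, and the nearest, 4833427G06Rik, begins 956 bp downstream of Mir34c. Mir34a (chr4:150068454-150068555) stands alone on the plus strand of chromosome 4, with no host gene, and its last 17 bp overlap the start of Gm37795, a transcript model on the same strand that the annotation lists as awaiting experimental support.

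All 6 genes were detected, that is, had at least 10 counts in both libraries, against 18.1% of all genes in the tables. Replicate 1 held 5354530 gene counts and replicate 2 held 6489390, so 1 count equalled 0.187 and 0.154 CPM (counts for every 1000000 gene counts in the library). No read was counted on the strand opposite any of the 6 genes in either library, out of 160572 and 192195 opposite-strand reads over all genes, so no read from the strand of Btg4 was counted at Mir34b or Mir34c. Intervals below are exact (Clopper-Pearson) at 95%. They are computed from the counts, so they cover counting error alone and no variation between pools or preparations. The labels name no molecular identifiers, so amplified copies of a molecule may be counted repeatedly, which would make the intervals too narrow.

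Mir449a, the main product of the Cdc20b locus, dominated the family. It had 45895 counts in replicate 1 and 49464 in replicate 2. That is 8571 CPM (interval 8493 to 8650) and 7622 CPM (7556 to 7690), a mean of 8097 ± 671 CPM (SD, n = 2). It ranked 26th of the 357 detected genes and held 89.5% ± 1.09 of the family's counts. The 2 detected genes next above it in rank were Mir93 (8802 ± 1388 CPM) and Mir21a (8703 ± 395 CPM), and the 2 next below were Mir151 (7493 ± 105 CPM) and Mir652 (7035 ± 496 CPM, SD, n = 2). Their absolute log2 ratios to Mir449a in mean CPM over 2 libraries were 0.12, 0.10, 0.11 and 0.20 in that order. Mir449a was above Mir93 in replicate 1 (8571 against 7820 CPM) and below it in replicate 2 (7622 against 9783 CPM), so these 2 genes were not ordered beyond the spread between the libraries. Mir449a was above Mir151 in both libraries (log2 ratios 0.21 and 0.01), but by less than the spread between them (0.11 ± 0.140). It was below Mir21a (log2 ratio -0.11 ± 0.0542) and above Mir652 (0.20 ± 0.0179, SD, n = 2) by more than the spread.

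Its neighbours in the same intron were counted at a small fraction of that level. Mir449c had 77 counts (14.4 CPM, interval 11.3 to 17.97) and 100 counts (15.4 CPM, 12.5 to 18.7), a mean of 14.9 ± 0.728 CPM. Mir449b had 48 counts (8.96 CPM, interval 6.61 to 11.9) and 91 counts (14.0 CPM, 11.3 to 17.2), a mean of 11.5 ± 3.58 CPM (SD, n = 2). The libraries were close for Mir449c, whereas Mir449b was higher in replicate 2.

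The Mir34b and Mir34c pair was led by Mir34c, which reached 3084 counts (576 CPM, interval 556 to 597) and 3909 counts (602 CPM, 584 to 622), a mean of 589 ± 18.7 CPM. Mir34b, its upstream neighbour, had 145 counts (27.1 CPM, interval 22.9 to 31.9) and 140 counts (21.6 CPM, 18.1 to 25.5), a mean of 24.3 ± 3.89 CPM. Mir34a, the member best known outside multiciliated cells, had 1607 counts (300.1 CPM, interval 286 to 315) and 2059 counts (317 CPM, 304 to 331), a mean of 309 ± 12.1 CPM (SD, n = 2). Mir34c and Mir34a thus stood above the median detected gene (123 CPM), at ranks 113 and 139 of 357, and Mir34b, Mir449c and Mir449b below it, at ranks 250, 262 and 277.

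**Figure D2:**
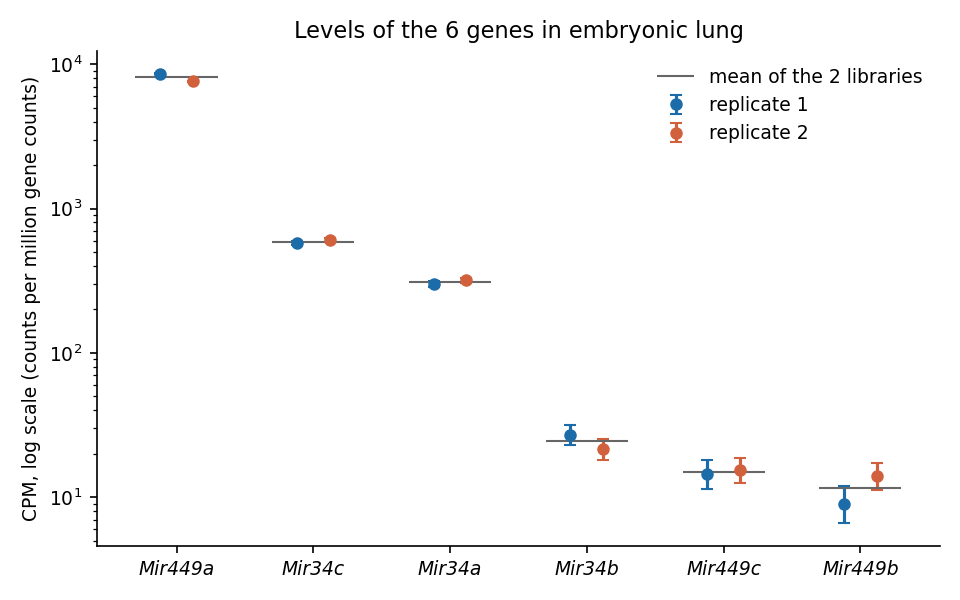
CPM on a log scale for each gene in replicates 1 and 2, with exact 95% intervals as bars (counting error only) and the mean of the 2 libraries as a line. Mir449a at 8097 CPM stands 13.7-fold above Mir34c, and the intervals of Mir449c and Mir449b overlap in both replicates.

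**Figure D3:**
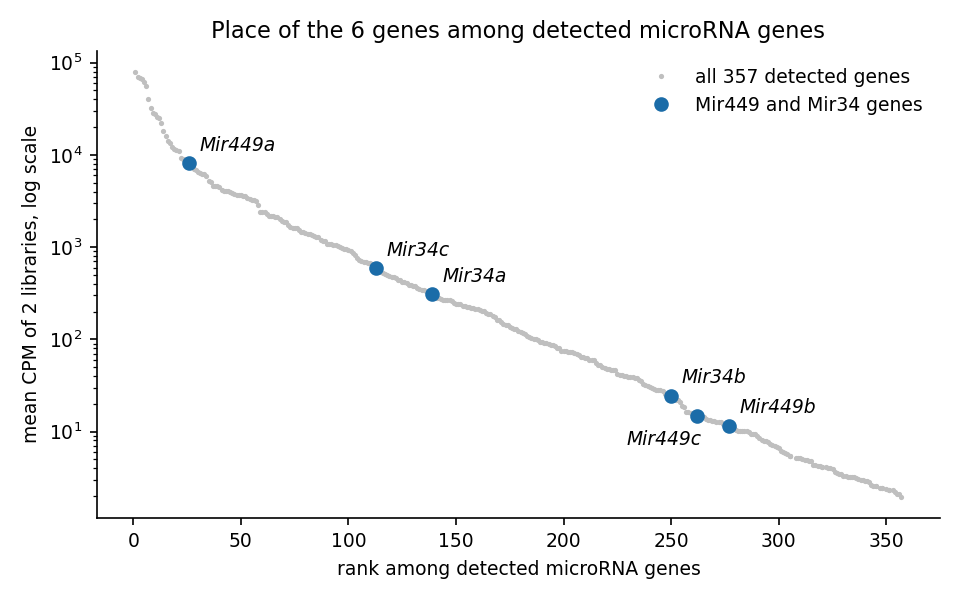
Mean CPM on a log scale against rank for the 357 detected microRNA genes, with the 6 members marked. Mir449a is at rank 26, Mir34c and Mir34a at 113 and 139, and Mir34b, Mir449c and Mir449b at 250, 262 and 277.

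The order of the members was compared for the 5 neighbouring pairs, by the log2 ratio within each library. Mir449a exceeded Mir34c by 14.9-fold in replicate 1 and 12.7-fold in replicate 2 (log2 ratio 3.78 ± 0.165). Mir34c exceeded Mir34a by 1.92-fold and 1.90-fold (0.93 ± 0.011), the closest agreement of the 5 pairs. Mir34a exceeded Mir34b by 11.1-fold and 14.7-fold (3.67 ± 0.289, SD, n = 2). These 3 differences were larger than the spread between the libraries.

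At the low end the order was less firm. Mir34b exceeded Mir449c by 1.88-fold (interval 1.42 to 2.52) in replicate 1 and 1.40-fold (1.08 to 1.83) in replicate 2, a log2 ratio of 0.70 ± 0.302. Mir449c exceeded Mir449b by 1.60-fold (1.10 to 2.35) in replicate 1 and by 1.10-fold (0.819 to 1.48) in replicate 2, a log2 ratio of 0.41 ± 0.386 (SD, n = 2). The last of these differences was about the size of the spread between the libraries, and in replicate 2 alone it was not detectable at that depth. An exact 2-sided permutation test gave p = 0.333 for each of the 5 pairs, also after Benjamini-Hochberg adjustment, the smallest value that 2 libraries against 2 allow, so no pair could pass 0.05. That test treats the values as unpaired, although both genes of a pair were counted in the same libraries. Swapping the genes within each library, which keeps the pairing and was chosen after seeing the data, gave p = 0.50 in an exact test for each pair, also the smallest possible. A bias that both libraries share, such as in ligation to different small RNAs, would not show in the spread between them.

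Genes that lie next to each other were unequal at both clusters. Mir449a exceeded Mir449b, 35 bp away, by 956-fold (interval 721 to 1297) in replicate 1 and 544-fold (443 to 675) in replicate 2, a log2 ratio of 9.49 ± 0.576. It exceeded Mir449c by 596-fold and 495-fold (9.08 ± 0.190). Mir34c exceeded Mir34b by 21.3-fold (18.002 to 25.3) and 27.9-fold (23.6 to 33.3), a log2 ratio of 4.61 ± 0.278 (SD, n = 2). Each of these 3 differences was larger than its spread, with p = 0.333 in the exact permutation test, again the smallest possible.

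Groups of neighbouring precursors give the background for these gaps. Among 41 groups with at least 2 detected members (same strand, gaps up to 10000 bp), the median fold between the highest and the lowest member was 19.4. The Mir449 group, at 721-fold over both libraries, had the 4th largest gap, and the Mir34b and Mir34c group, at 24.4-fold, the 19th. These ranks take no account of group size, which ran from 2 to 29 detected members, although more members leave room for a larger gap. The 3 groups with larger gaps than Mir449 had 7, 6 and 11 detected members, against 3 for Mir449. Members with near-identical copies elsewhere can lie too low in such groups, because reads with several mapping places (31.4% of reads in replicate 1 and 30.6% in replicate 2) were tallied apart from the genes.

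For the members with sequences, exact matches alone were sought, so copies that differ at a few bases would not be found. The longest run that the hairpin of Mir449a shared with any of the other 1004 hairpins of the table was 14 nt, with Mir679, and for Mir449c, Mir34a, Mir34b and Mir34c it was 11 nt. Of 9 mature sequences of the 5 genes, each matched exactly 1 gene, its own, among 141767 annotated transcripts, over its whole length and over its first 18 bases, with no match on the opposite strand. Introns and intergenic sequence were not searched, and neither Mir449b nor the mature sequence miR-34c-5p was searched for. The mismatches allowed in mapping are not known, so how well reads of the members could be told apart was not tested.

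The family as a whole took 0.9498% of the gene counts in replicate 1 and 0.859% in replicate 2, a mean of 0.905% ± 0.0640 (SD, n = 2). By locus, the Mir449 genes took 0.812% ± 0.0667, Mir34b and Mir34c together 0.0613% ± 0.00148 and Mir34a 0.0309% ± 0.00121. The Mir449 locus exceeded the 3 Mir34 genes together by 9.52-fold in replicate 1 and 8.13-fold in replicate 2 (log2 ratio 3.14 ± 0.161, exact permutation p = 0.333).

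Against microRNAs known from epithelium, the family lay below the miR-200 family, whose 5 genes are expressed across epithelium. It lay near the list of Mir375, Mir205 and Mir203, known from neuroendocrine and from basal or stratified epithelium. The miR-200 family took 3.19% in replicate 1 and 3.15% in replicate 2, so that it was 3.51-fold higher (log2 ratio of the members over it, -1.81 ± 0.0873, SD, n = 2), a difference larger than the spread. The other list took 0.754% and 0.839%, and the log2 ratio of the members over it was 0.18 ± 0.211, within the spread between the libraries. With Mir449a left out, the 5 remaining members lay below that list as well (log2 ratio -3.07). Within the list Mir375 was highest (mean 4578 CPM, against 1756 for Mir205 and 1630 for Mir203). The ratio with Mir375 left out was not computed. Exact 2-sided permutation tests gave p = 0.333 for both lists, the smallest possible. In whole lung, fewer cells of a type and less RNA per cell cannot be told apart.

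**Figure D4:**
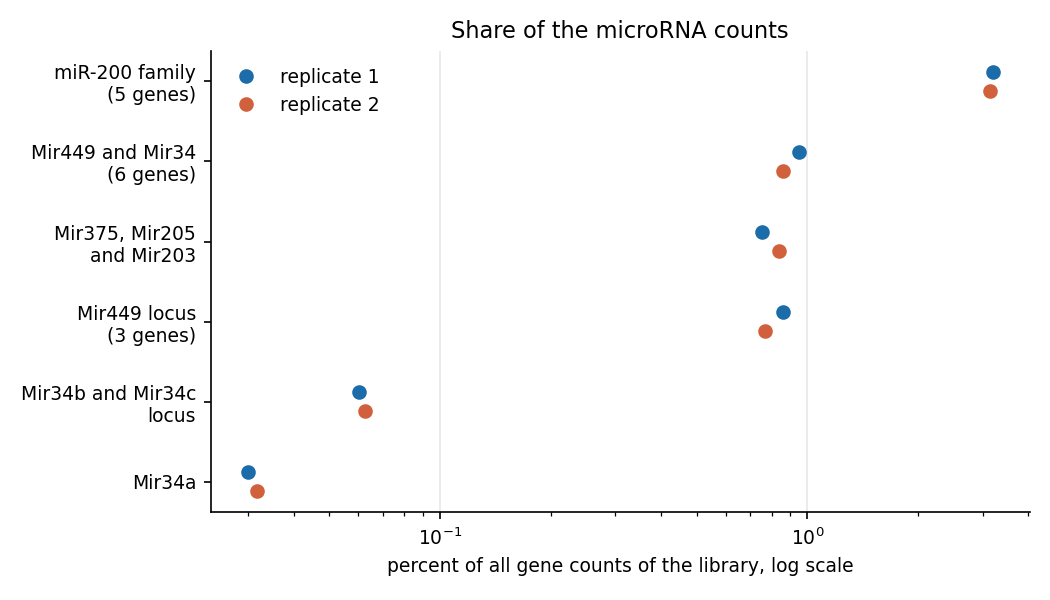
Percent of all gene counts of the library, on a log scale, in replicates 1 and 2 for the miR-200 family, the 6 Mir449 and Mir34 genes together, the list of Mir375, Mir205 and Mir203, and the 3 loci of the family. The miR-200 family is near 3.17%, the 6 genes near 0.905% and the Mir34b and Mir34c locus near 0.0613%.

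The members did not differ between the pools in 1 direction. Mir449a was lower in replicate 2, with a ratio of replicate 2 over replicate 1 of 0.889 (interval 0.878 to 0.901), while Mir34c stood at 1.05 (0.997 to 1.10) and Mir34a at 1.06 (0.990 to 1.13). The median detected gene differed by 1.10-fold between the libraries, so differences of this size were common. Mir449c stood at 1.07 (0.788 to 1.46), so its interval held both no difference and the ratio of Mir449a.

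Of the 3 members with few counts, Mir449b and Mir34b differed more than Mir449a, and Mir449c less. Mir449b was higher in replicate 2 at 1.56 (1.09 to 2.27) and Mir34b lower at 0.797 (0.627 to 1.01). Of the 6 members, 1 (Mir449b) was at least 25% higher in replicate 2, against 9.52% of detected genes, and 1 (Mir34b) at least 20% lower, against 10.9%. Among all detected genes 91.9% differed less between the libraries than Mir449b, 80.7% less than Mir34b and 58.3% less than Mir449a. For the 55 detected genes with a mean of 50 to 200 counts, the range that holds Mir449b, Mir449c and Mir34b, the median difference was 1.19-fold and the 90th percentile 1.46-fold. Each pool was sequenced once, so these ratios compare 2 libraries and carry no test.

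**Figure D5:**
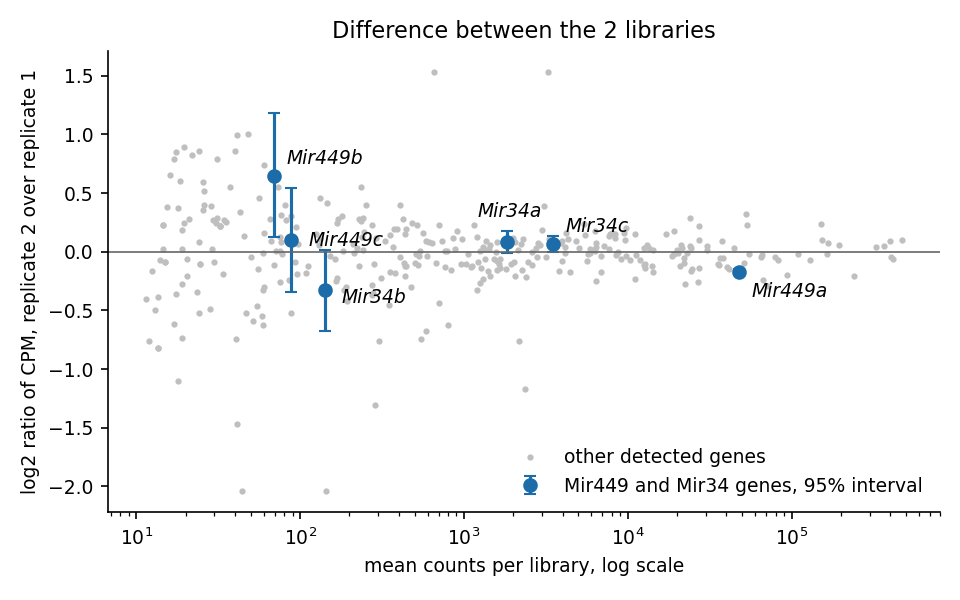
Log2 ratio of CPM, replicate 2 over replicate 1, against the mean counts per library on a log scale, with detected genes in grey and the 6 members with exact 95% intervals. Mir449a lies at -0.17 with a narrow interval, Mir449b at 0.65 and Mir34b at -0.33 with wide ones.

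Markers of the cell types that a dissected lung can hold moved between the same 2 libraries, and their part in the ratios of the members was not tested. The summed CPM of the 5 epithelial microRNAs was 31937 in replicate 1 and 31476 in replicate 2, a ratio of 0.986, with log2 ratios of the 5 genes between -0.05 (Mir429) and 0.12 (Mir141), beside -0.17 for Mir449a. Neuroendocrine Mir375 had a ratio of 1.17, the basal and stratified pair Mir205 and Mir203 1.04, the smooth muscle pair Mir143 and Mir145a 1.07 and endothelial Mir126a 0.972. In the basal and stratified pair, Mir205 was lower in replicate 2 (log2 ratio -0.07) and Mir203 higher (0.20). The muscle, liver and neural lists differed more. Their ratios were 1.33 for 4 heart and skeletal muscle genes (928 and 1237 CPM), 0.646 for 2 liver genes (526 and 340.0 CPM) and 0.650 for the neural list (166 and 108 CPM). Within the muscle and liver lists members went opposite ways. Mir208b (log2 ratio 1.53), Mir206 (1.53) and Mir499 (0.56) were higher in replicate 2 and Mir208a lower (-1.17), and of the liver pair Mir122 was lower (-0.76) and Mir192 higher (0.14). In the neural list 1 of 5 genes was detected, and Mir124a-1, Mir124a-2, Mir124a-3 and Mir9-2 were at 0 in both libraries, where near-identical copies can hide counts. The erythroid pair stood at 1.22 and the 3 leukocyte genes at 0.902. Of the leukocyte genes, Mir155 (log2 ratio -0.67) and Mir223 (-0.08) were lower in replicate 2 and Mir150 was nearly level (0.01).

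Other microRNAs reported as responsive to p53 were listed beside the Mir34 genes, to set their levels side by side. Of 8 listed, 7 were detected. Mir15a, from a pair of genes that restrain the cell cycle, was highest at 4053 ± 96.3 CPM, followed by Mir16-1 (2165 ± 112 CPM), Mir107 (1592 ± 125 CPM) and Mir145a (1062 ± 90.3 CPM). Mir192 (59.2 ± 4.16 CPM), Mir194-2 (35.6 ± 1.15 CPM) and Mir215 (10.2 ± 3.05 CPM) were lower, and Mir194-1 had 18 and 7 counts (SD, n = 2 for each). Mir34c and Mir34a thus lay between Mir145a and Mir192, and Mir34b between Mir194-2 and Mir215. Mir16-1, Mir194-1 and Mir194-2 have near-identical copies, so their counts are uncertain. With 1 group, nothing can be said of a response to p53 in these lungs.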

How the data were processed

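The authors deposited raw counts of reads for each microRNA gene, on mm10 and annotation M4 per the readme files. The aligner, counter, trimming and filters were not given in the sources used here. Inserts were under 30 nt, per the labels. Each table holds 3 columns of counts (either strand, annotated strand and opposite strand, judged by their sums) and also 4 summary lines, which were kept out of library sizes. Gene counts were 46.9% and 48.0% of all reads. A gene is a precursor, so its arms are counted together.

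The annotated-strand column was used. CPM, means and SDs were computed from it, with gene names and positions from GENCODE M21, whose assembly GRCm38 is mm10 (1894 of 1973 identifiers matched without version). Sequences came from RefSeq (GRCm38.p6). A genome sequence was not used here, so exact matches were sought in annotated transcripts in place of the planned genome search. The members, lists, count minimum of 10 and tests were chosen with earlier results of these data known. Named genes were all members, the 2 detected genes above and below Mir449a in mean CPM, other microRNAs with a member's seed, the marker and p53 lists, and annotated genes near the precursors. Ratios carry exact binomial intervals conditional on both counts. Alternatives were counts without regard to strand, other totals, TMM factors (edgeR 4.0.16), DESeq2 1.42.0 size factors, each replicate alone, other count minimums and members left out. Swapping genes within each library was added after seeing the data. The ratio procedure was tested on data simulated with counting error only, the error it assumes, so that test cannot speak to variation between pools. Python 3.11.15, scipy 1.17.1 and R 4.3.3 were used.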

Additional observations from a re-analysis of the deposited data

How the results depend on the processing

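The level of Mir449a was 8793 CPM with Mir143, the gene with the most counts, left out of the total, and 3839 CPM with all reads of the library as the total. The family's share was 0.982% and 0.429% under the same settings. Counts without regard to strand, TMM factors and DESeq2 size factors moved both by less than the spread between the libraries. Over each replicate alone, the level of Mir449a ranged from 7622 to 8571 CPM, the share from 0.859% to 0.9498%, and the log2 ratio of the members over the list of Mir375, Mir205 and Mir203 from 0.03 to 0.33. With Mir449a left out that ratio turned from 0.18 to -3.07, and the one over the miR-200 family went from -1.81 to -5.06, since Mir449a held most counts. Neither list holds a gene with a numbered copy, so leaving such genes out changed nothing. The order of neighbouring members kept its direction in each replicate alone and without regard to strand. With a minimum of 100 counts in both libraries 4 of 6 members remained detected, and with 1 count all 6. With the replicate block kept by swapping genes or lists within each library, chosen after seeing the data, the log2 ratios are unchanged by construction (0.18 for the members over the list of Mir375, Mir205 and Mir203), with exact p = 0.50 for each. Depth limits Mir449b and Mir449c, whose 48 to 100 counts per library leave wide intervals.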
